A study of Mus musculus with 24 samples.

Results

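The genes described here are 9 members of polyamine metabolism, Amd1, Amd2, Odc1, Srm, Sms, Sat1, Azin1, Smox and Oaz1, of the 49568 gene symbols in the count files, and all 9 were among the 18482 genes that passed the filter on low counts. They were chosen from a pattern already seen in these data, the low level of Amd2 in most enriched MSK1 kinase-dead (MSK1 KD) libraries, and Amd2 is therefore described without a test. Hippocampal RNA came from 12-week-old male mice that were either wild type (WT) or homozygous for a knock-in mutation that inactivates the kinase MSK1 (gene Rps6ka5), and they were reared from birth either under standard conditions (SH) or enriched (EE), in large cages with wheels and toys. Both genotypes were kept as separate homozygous lines in a C57-Bl/6J background, to which the mutant line, made in C57-Bl/6n, had been backcrossed, the mutation was present in every cell, and the litter and cage of each library were not given in the sources used here. Each group had 6 deposited libraries, and the 22 used here were 6 in each SH group and 5 in each EE group. Libraries 33B (WT EE) and 34B (KD EE) had failed quality control and are given only as values.

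Polyamines are small positively charged molecules that bind RNA, DNA and ion channels, and spermine blocks inward rectifier potassium channels and some glutamate receptors in neurons. Ornithine decarboxylase, encoded by Odc1, makes putrescine. Adenosylmethionine decarboxylase, encoded by Amd1 and by the close copy Amd2, makes the donor from which Srm (spermidine synthase) and Sms (spermine synthase) add the aminopropyl groups. In the other direction, Sat1 acetylates spermidine and spermine, and Smox oxidizes spermine. Oaz1 (antizyme) binds ornithine decarboxylase and directs it to the proteasome, and Azin1 (antizyme inhibitor) binds antizyme in its place.

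Amd1 (ENSMUSG00000075232) and Amd2 (ENSMUSG00000063953) both lie on the minus strand of chromosome 10 in GRCm38, the build of the count files, with positions from GENCODE M21. Amd1 spans chr10:40287458-40302186 and its main annotated transcript has 8 exons. Amd2 spans chr10:35708675-35711892 as 1 exon that overlaps 0 other annotated genes, 4575566 bases from Amd1, and its annotated transcript ends in a run of 17 A. Over the 3204 columns that aligned without a gap, the transcripts were 99.6% identical, with 14 substitutions, and a further 14 columns held a gap. The coding sequences have 1005 bases each, stop codon included, and differ by 1 substitution, G796C, in which Amd1 has the first base and positions are counted from the start of the coding sequence. The window around this base is shown because it is the only coding difference between the paralogs, with the differing base in capitals and coding bases 766 to 826 printed.
Amd1: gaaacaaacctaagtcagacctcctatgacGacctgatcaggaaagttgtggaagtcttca
Amd2: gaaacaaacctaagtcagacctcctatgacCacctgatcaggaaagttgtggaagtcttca

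**Figure D1:**
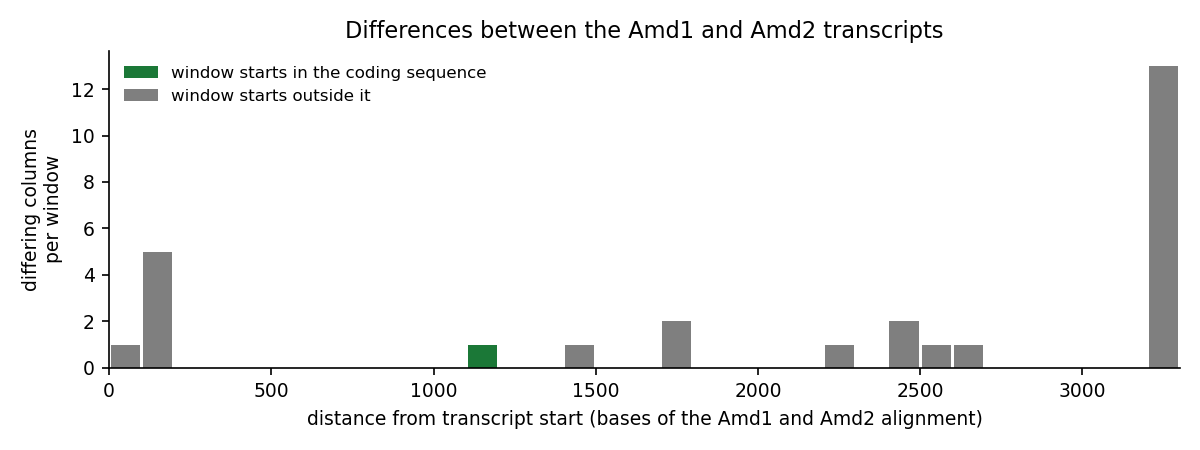
Columns that differ between the aligned Amd1 and Amd2 transcripts (vertical axis, substitutions and gaps per window of 100 columns) against distance from the transcript start in bases (horizontal axis), with windows that start in the coding sequence in green. The coding part held 1 difference, and the last window, of 18 columns, held 13 of the differing columns.

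The start regions of the paralogs, unlike their transcripts, share little sequence. The windows below run from 250 bases before the RefSeq start to 30 bases after it (GRCm38.p6, minus strand), and are shown because the level of Amd2 varied between libraries while that of Amd1 did so far less. The Amd1 window is chr10:40302159-40302438 and the Amd2 window is chr10:35711862-35712141. Capitals mark the part, in each window, of a 48-base run that the full windows of 300 bases share.
Amd1: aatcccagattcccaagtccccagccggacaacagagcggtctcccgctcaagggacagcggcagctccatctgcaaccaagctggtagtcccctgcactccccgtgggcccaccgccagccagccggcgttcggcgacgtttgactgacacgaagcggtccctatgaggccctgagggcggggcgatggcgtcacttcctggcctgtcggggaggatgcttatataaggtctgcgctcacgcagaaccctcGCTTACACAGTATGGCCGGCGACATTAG
Amd2: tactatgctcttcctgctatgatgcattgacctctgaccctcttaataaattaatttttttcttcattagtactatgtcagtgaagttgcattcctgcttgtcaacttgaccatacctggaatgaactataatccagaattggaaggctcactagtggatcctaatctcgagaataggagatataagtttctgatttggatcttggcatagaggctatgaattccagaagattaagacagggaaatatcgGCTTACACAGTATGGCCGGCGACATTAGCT
In the 250 bases before the start, the longest run shared by both was 7 bases. The GC content there was 64.4% for Amd1 and 37.6% for Amd2. The letters GGGCGG (GC box, both strands) stood in the 300-base window of Amd1 1 time and in that of Amd2 0 times, and 35.7% of the 32851 promoter windows of the table held them. TGACG, which overlaps the 8-letter cAMP response element TGACGTCA, was present 1 time in Amd1, 1 time in Odc1 and 2 times in Oaz1. It was present 0 times in Amd2, Sms, Sat1 and Smox, and 20.8% of all windows held at least 1 match. TGACGTCA itself, found in 1.79% of all windows, was in none of the windows of the 7 members that the table holds.

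The closeness of the copies limits what their counts can show, since only uniquely aligned reads were counted. Of the 3069 stretches of 150 bases in the Amd2 transcript, 1179 (38.4%) were found in no transcript of another gene, and of the 3055 in the Amd1 transcript, 1015 (33.2%). Read pairs cover more than 1 such stretch, so these shares are not the share of countable pairs, and the levels of both genes may be understated. Counts of the Amd-ps pseudogenes were low in the 22 libraries, with 0 to 1 counts of Amd-ps1, 2 to 20 of Amd-ps3, 1 to 24 of Amd-ps4 and 0 of Amd-ps5.

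The level of Amd2 fell into 2 separate ranges in these libraries. In WT SH, the level was 6.14, 5.01, 4.94, 2.80 and 3.25 CPM (counts per 1e6 counts on genes, TMM-scaled) in libraries 10, 11, 12, 14 and 15, and 0.222 CPM in library 13. The WT EE libraries 16, 17, 31B, 33A and 35A had 3.58, 3.54, 2.32, 5.47 and 5.74 CPM. All 5 WT EE libraries, and 5 of 6 WT SH libraries, thus held Amd2 at 2.32 CPM or more. The KD SH libraries 1 to 6 had 4.66, 3.75, 5.51, 2.80, 4.05 and 4.64 CPM. In KD EE, libraries 7, 8, 32A and 36A had 0, 0.130, 0.272 and 0.20 CPM, and library 9 had 6.68 CPM. Of the 5 KD EE libraries, 4 were below every library of the other groups except WT SH library 13, and the remaining 1, library 9, was the highest of the 22. No library lay between 0.272 and 2.32 CPM, an 8.53-fold gap, with 5 libraries below it and 17 above.

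**Figure D2:**
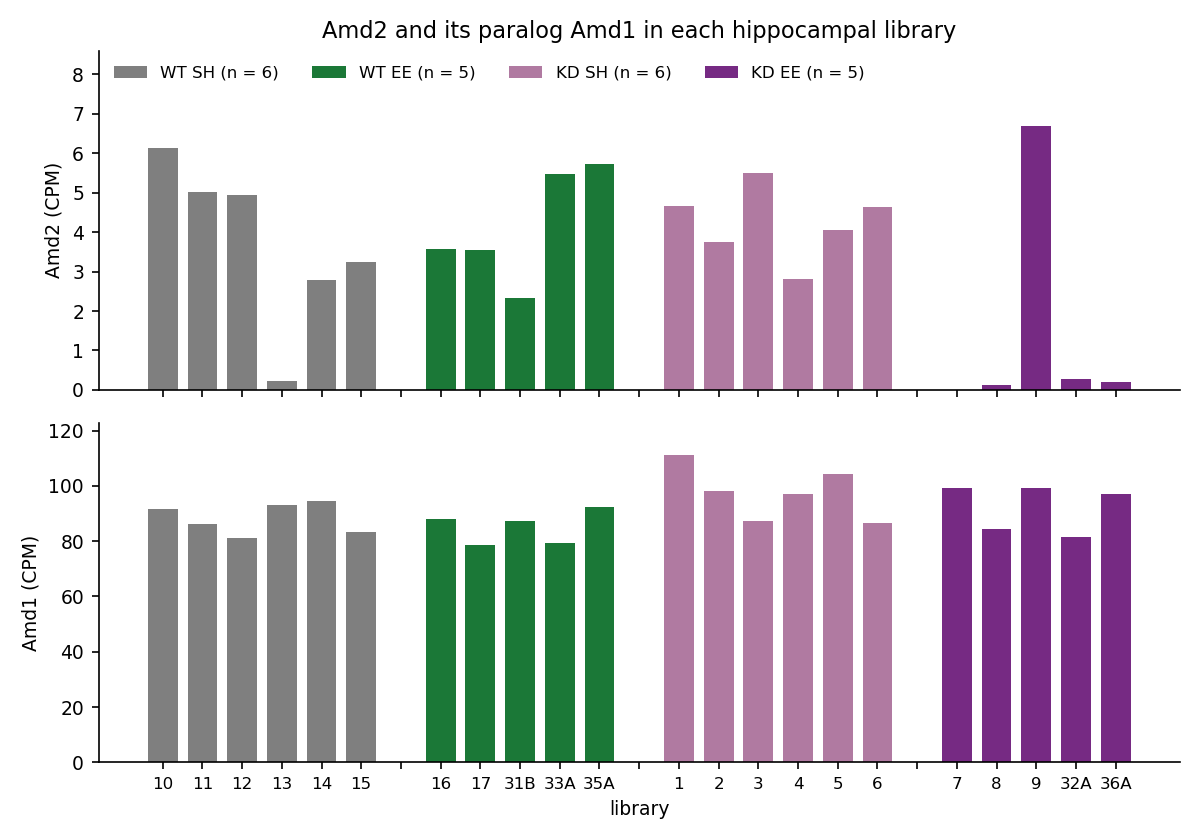
Level of Amd2 (top) and Amd1 (bottom) in TMM-scaled CPM (vertical axes, from 0) in each of the 22 libraries (horizontal axis, library codes), coloured by group. Amd2 was at 0 to 0.272 CPM in libraries 13, 7, 8, 32A and 36A and at 2.32 to 6.68 CPM in the others, while Amd1 stayed between 78.8 and 111 CPM.

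The raw counts behind these levels were small but well apart. Libraries 7, 8, 32A, 36A and 13 held 0, 4, 9, 6 and 9 counts of Amd2, at depths of 13003876 to 40854571 counts on genes, and the other 17 held 61 to 318. The floor of 3 counts corresponded to 0.231 CPM in library 7, so that a level of up to that value would not have been detectable there. Library 9, the shallowest of the 22 with 8911999 counts on genes, held 61 counts of Amd2 and 907 of Amd1. The libraries that had failed quality control held 67 Amd2 counts beside 1008 Amd1 counts in 33B, which is 4.86 CPM over all 24 libraries, and 4 beside 2 in 34B, which had 16442 counts on genes.

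Set beside its paralog, Amd2 gave a small and variable part of the joint counts. Its share of the Amd1 and Amd2 counts was 6.30% in KD EE library 9 (95% Wilson interval 4.94 to 8.01, which covers counting error only). In KD EE library 7 the share was 0% of 1294 counts (upper bound 0.296%), in library 8 it was 0.153% and in library 36A 0.205%. The highest share among the 5 low libraries was 0.332%, in library 32A, which bounds how many Amd1 reads were counted at Amd2 in that library. In KD SH the share ran from 2.81% to 5.93%, in WT EE, with 33B left out, from 2.59% to 6.45%, and in WT SH from 0.238% in library 13 to 6.28% in library 10. Amd1 itself was 81.6 to 99.1 CPM in the 5 libraries that were low in Amd2, within the range of 78.8 to 111 CPM in the other 17.

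By group, the mean Amd2 level was 3.73 ± 2.11 CPM in WT SH (SD, n = 6), 4.13 ± 1.44 in WT EE (SD, n = 5), 4.24 ± 0.926 in KD SH (SD, n = 6) and 1.46 ± 2.92 in KD EE (SD, n = 5). The order of the means was KD SH, WT EE, WT SH and KD EE, and every neighbouring pair in it overlapped between libraries. Library 9 set the KD EE mean, which was 0.150 CPM without it. The fitted log2 difference of KD EE from KD SH was -2.17 with library 9 and -4.56 without it, and the interaction of genotype and housing was 2.36 with it and 4.74 without. Library 13 had a smaller part in WT SH, whose mean was 4.45 CPM without it. Without library 9, Amd2 was the only gene called in KD EE against KD SH and in WT EE against KD EE (adjusted p up to 0.05 with a log2 fold change of at least 0.38), and this count is no support for the pattern by which the gene was chosen. The libraries whose codes carry a letter were all from enriched mice, and low Amd2 was found in KD EE libraries with a letter (32A and 36A) and without one (7 and 8). Any relation of Amd2 to the letter was not tested. Library 9 was also among the 5 libraries that the study left out for poor correlation within their group, with 2, 12, 31B and 35A. Without these 5, the 4 KD EE libraries were all low.

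Over the 22 libraries, the coefficient of variation of Amd2 was 61.9%, above that of 98.2% of the 1633 tested genes of like mean level (within 1.5-fold), whose median was 19.6%. That of Amd1 was 9.35%, with a median of 8.18% among 2285 genes of like level. Amd2 was chosen for its low level in most KD EE libraries, so its high rank follows from that choice and is no support for the pattern. The log2 level of Amd2 had a Pearson r of -0.06 with that of Amd1, and between -0.25 (Srm) and 0.04 (Sat1) with the 8 other members, each over 22 libraries.

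The genes whose log2 levels followed Amd2 most closely were named by r over the 22 libraries. The 5 highest were Gm44741 (r = 0.75), Gm36266 (0.72), Gm36445 (0.72), Gm1976 (0.71) and Dna2 (0.71), a nuclease-helicase of DNA replication. Gm44741 and Gm36266 had mean levels of 0.394 and 0.407 CPM, and the level of Dna2 ranged from 0.613 to 2.41 CPM. The 5 lowest were Txndc11 (-0.66), Gm45234 (-0.63), Pik3cg (-0.62), Pnpla1 (-0.62) and Mtmr14 (-0.62). These r describe the most extreme of 18481 genes, and the points share libraries and depth. Library 7, with no Amd2 count, was also the lowest of the 22 for each of the 5 genes with the highest r. It was the highest of the 22 for each of the 5 with the lowest r. By rank, Spearman's rho with Amd2 was 0.48 (Dna2) to 0.57 (Gm1976) for the former. For the latter it was -0.27 (Pik3cg), -0.31 (Gm45234), -0.44 (Mtmr14), -0.55 (Txndc11) and -0.69 (Pnpla1). The levels of Txndc11 (28.8 to 39.4 CPM) and Gm1976 (9.57 to 14.9 CPM) varied far less than that of Amd2.

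The nearest tested genes on chromosome 10 lay 1097397 (Frk), 1290123 (Nt5dc1) and 1407355 bases (Tspyl4) below Amd2 and 794922 (Hs3st5), 1262652 (Hdac2) and 1421483 bases (Marcks) above it. Hdac2, a histone deacetylase, was 83.7 ± 5.57 CPM in KD SH (SD, n = 6) and 77.4 ± 4.74 in KD EE (SD, n = 5), a log2 difference of -0.10 (adjusted p = 0.598). Hs3st5, a heparan sulfate sulfotransferase, was 2.02 ± 0.385 CPM in KD SH (SD, n = 6) and 1.97 ± 0.280 in KD EE (SD, n = 5). Frk, a tyrosine kinase, was 0.110 to 0.934 CPM in KD EE and 0.131 to 0.758 CPM in KD SH. None of the 6 neighbours was called in any of the 5 comparisons, but 0% of all genes were, so this does not set the neighbours apart. Hs3st5 was lower in WT EE than in KD EE, with a log2 difference of -0.51 (SE 0.199, unadjusted p = 0.0170 by edgeR). The other neighbours lay between -0.04 (Tspyl4) and 0.08 (Marcks) in that comparison. Any relation of the Hs3st5 level to that of Amd2 was not tested.

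The 8 other members were compared between groups with edgeR's quasi-likelihood test in 1 fit of the 4 groups, with Benjamini-Hochberg adjustment across the 18482 genes. A call needed an adjusted p no higher than 0.05 together with a log2 fold change of at least 0.38 in size, that is 1.3-fold. In WT EE against WT SH, 0 of the 8 were called, and 0% of all genes were, while 2 of the 8 had an unadjusted p under 0.05 (Odc1 higher and Sms lower), against 8.65% of all genes (5.24% higher and 3.4% lower). In KD EE against KD SH, 0 of 8 were called, beside 0% of all genes, and 0 had an unadjusted p under 0.05, beside 9.63% of all genes. The corresponding numbers were 0 of 8 called and 0 of 8 under 0.05 in WT SH against KD SH (0% and 5.76% of all genes), in WT EE against KD EE (0% and 2.61%) and in the interaction (0% and 2.04%). DESeq2 also called 0 of the 8 in every comparison. In no comparison did the 2 groups fail to overlap for any of the 8, against 1.16%, 0.557%, 0.276% and 0.346% of all genes in the 4 comparisons of groups in the order above. The median log2 fold change of the 8 in WT EE against WT SH was 0.0028, and that of all genes 0.0062. In KD EE against KD SH these medians were -0.05 and 0.0028.

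**Figure D3:**
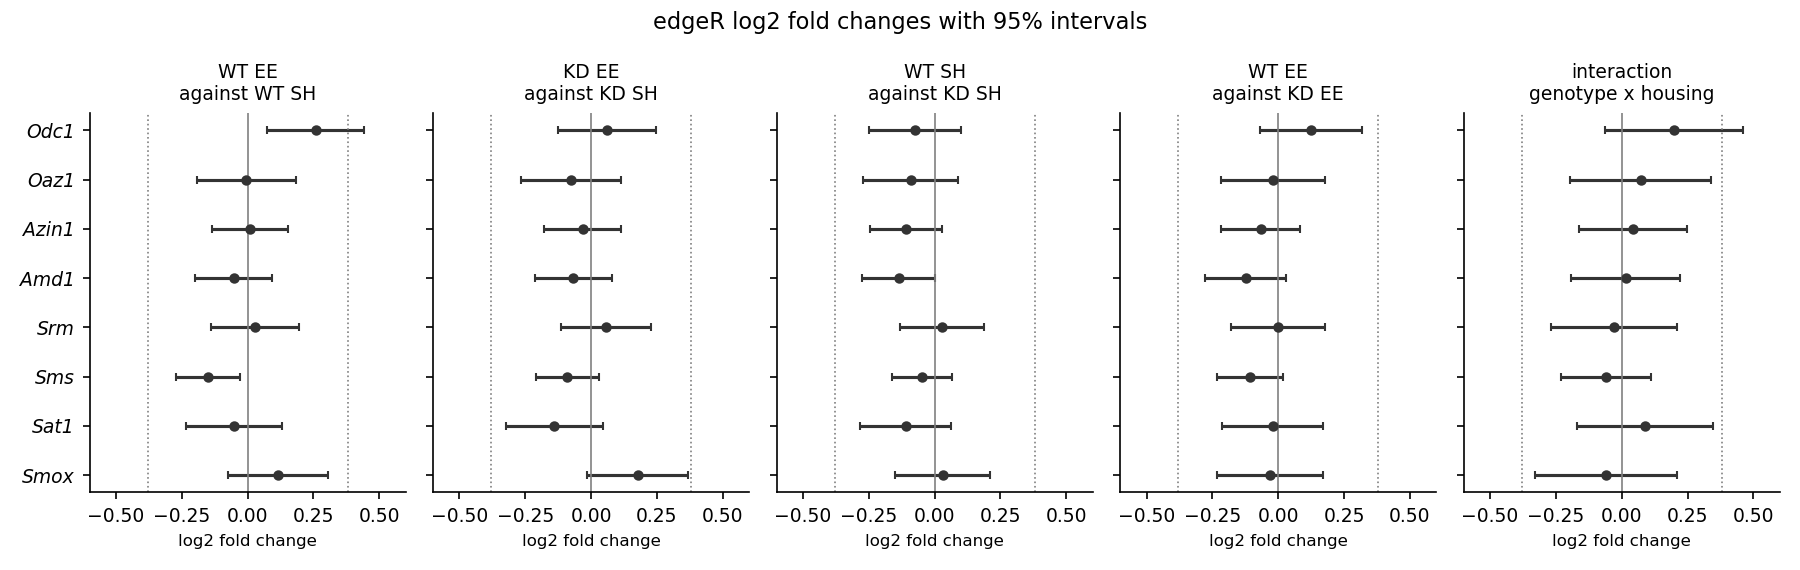
Fitted log2 fold change (horizontal axes) of the 8 members other than Amd2 (rows) in the 5 comparisons, with 95% intervals from edgeR as bars and dotted lines at the threshold of 0.38. The interval excluded 0 for Odc1 (0.26) and Sms (-0.15) in WT EE against WT SH and in no other case.

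Levels between genes were compared per kilobase of exon. Oaz1 had the highest mean, 60.5 CPM per kilobase (47.0 to 71.4 over the 22 libraries), and its range overlapped that of no other member. Amd1 (25.7), Srm (24.1), Azin1 (23.9), Sms (22.1) and Odc1 (19.1 CPM per kilobase) followed, and the ranges over the libraries overlapped between all neighbours in this order. Sat1 was at 12.2 CPM per kilobase (10.3 to 16.6), Smox at 9.93 (7.37 to 12.3), each overlapping its neighbour above, and Amd2 at 1.07 (0 to 2.08), the last below all others in every library.

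Odc1 had the widest relative spread of the 8 after Amd2 was set apart, with a coefficient of variation of 12.7%, above that of 89.7% of 2707 genes of like level. Odc1 was 54.8 to 65.0 CPM in WT SH, with a median of 60.2. It was 75.4, 86.4, 58.1, 81.4 and 59.2 CPM in WT EE libraries 16, 17, 31B, 33A and 35A. Libraries 16, 17 and 33A were above every WT SH library, and 31B and 35A were within the WT SH range, so that the groups overlapped. In KD SH, Odc1 was 55.4 to 72.4 CPM with a median of 63.3, and in KD EE 65.3, 67.4, 56.8, 69.6 and 68.0 CPM in libraries 7, 8, 9, 32A and 36A, all within the KD SH range. The log2 fold change was 0.26 in WT EE against WT SH (SE 0.089, unadjusted p = 0.00762, adjusted p = 0.414 by edgeR, n = 5 and 6) and 0.06 in KD EE against KD SH (SE 0.090, adjusted p = 0.857). The interaction was 0.20 (95% interval -0.06 to 0.46, adjusted p = 1.0).

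**Figure D4:**
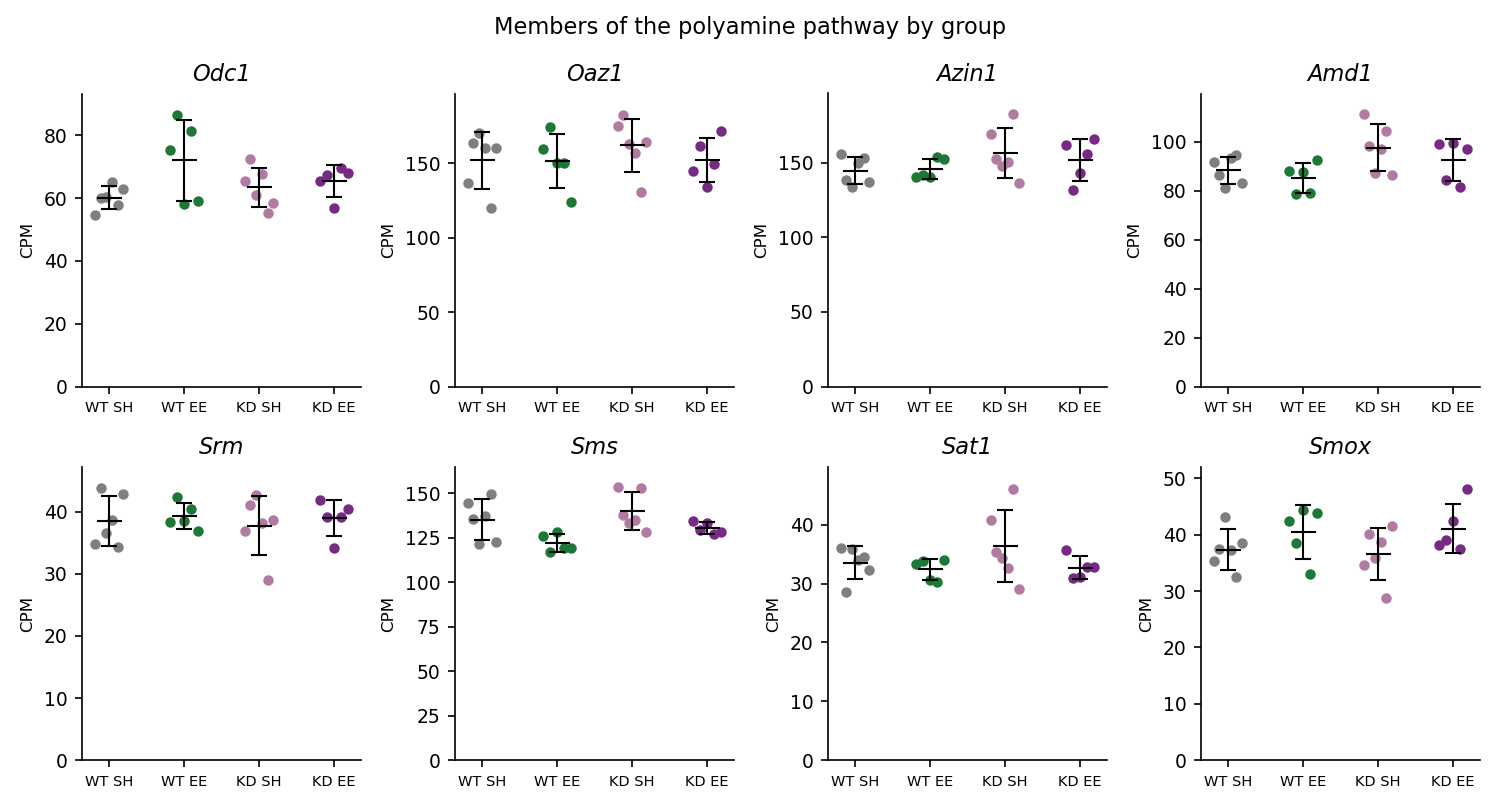
Level in TMM-scaled CPM (vertical axes, from 0) of the 8 members other than Amd2 in each library (points) of the 4 groups (horizontal axes), with the mean and SD in black. Odc1 in WT EE fell into libraries at 75.4 to 86.4 CPM and at 58.1 to 59.2 CPM, and the groups of every member overlapped.

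Whether Odc1 was called depended on which libraries were in the fit. In the 17 libraries that the study kept, which hold only 16, 17 and 33A for WT EE, Odc1 was called higher in WT EE than in WT SH, with a log2 fold change of 0.43 (adjusted p = 0.000458, edgeR), as 1 of 664 genes called. With no lettered libraries, which leaves 16 and 17 for WT EE, the log2 fold change was 0.43 (adjusted p = 0.0187). The 3 high WT EE libraries were also the WT EE libraries with the higher choroid plexus markers. Ttr, the transthyretin gene of the choroid plexus, was 4738, 3692 and 4651 CPM in libraries 16, 17 and 33A and 41.8 and 34.2 CPM in 31B and 35A, against 28.5 to 1667 CPM in WT SH. The summed level of the 15 choroid plexus markers was 235 to 8119 CPM in WT EE, 250 to 2826 in WT SH, 469 to 8424 in KD EE and 230 to 4428 in KD SH, and none of the 15 was at 0 in any library. With the score of these markers (their mean log2 CPM) as a covariate, the log2 fold change of Odc1 was 0.12 in the 22 libraries (adjusted p = 0.681) and, in an alternative added after the data were seen, 0.30 in the 17 (adjusted p = 1.0), and 0 members were called in either. Fewer cells of a type and less RNA per cell cannot be told apart in these bulk samples, and the part of the choroid plexus in the Odc1 level was not tested further.

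**Figure D5:**
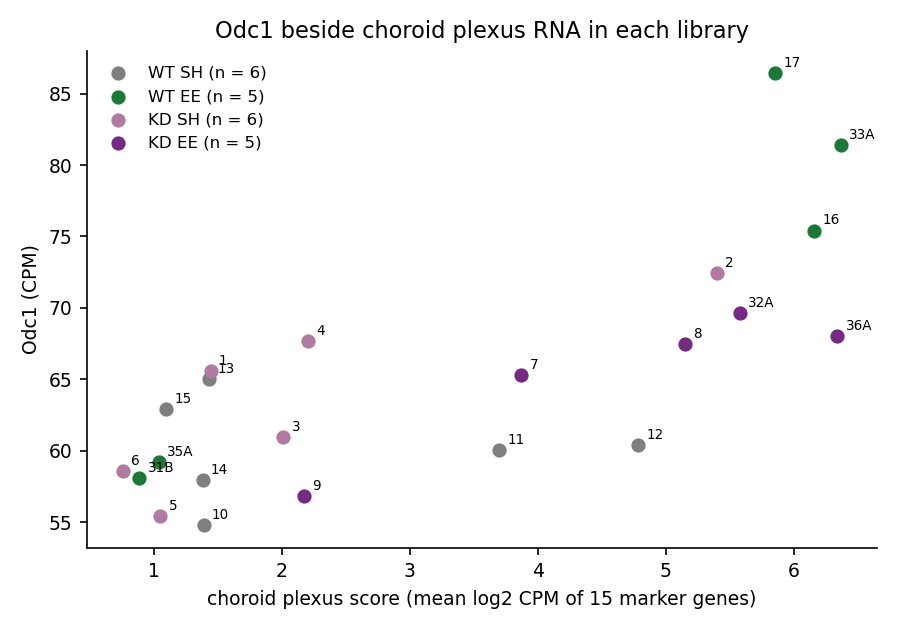
Odc1 level in TMM-scaled CPM (vertical axis) against the choroid plexus score, the mean log2 CPM of 15 marker genes (horizontal axis), for each of the 22 libraries, coloured by group and marked by code. WT EE libraries 16, 17 and 33A lie highest on the vertical axis. KD SH library 2 has both the highest score and the highest Odc1 level (72.4 CPM) of its group. KD EE library 9 has both the lowest score (2.17) and the lowest Odc1 level (56.8 CPM) of its group. KD EE library 36A combines a score of 6.34 with Odc1 at 68.0 CPM, and WT SH libraries 11 and 12 combine scores of 3.70 and 4.79 with Odc1 at 60.0 and 60.4 CPM.

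The choroid plexus score fell into separate ranges, 0.754 to 2.21 in 12 libraries and 3.70 to 6.37 in 10. The correlation with each member is therefore given within each range first. In the 12 libraries below, Odc1 had a Pearson r of 0.33 (permutation p = 0.287, adjusted over the 8 members 0.951) and a Spearman rho of 0.35 (permutation p = 0.269, adjusted 0.666). In the 10 above, r was 0.73 (permutation p = 0.0177, adjusted 0.142) and rho was 0.81 (permutation p = 0.00677, adjusted 0.0542), and r was 0.64 without the 2 libraries farthest from the median score. Within KD SH, r was 0.81 (exact permutation p = 0.0264, adjusted 0.211, n = 6), and within WT SH 0.014 (exact permutation p = 0.986, n = 6). WT EE and KD EE had 5 libraries each, too few for such a correlation. For the 7 other members the adjusted permutation p of Pearson's r was between 0.386 and 0.958 in both ranges. Over all 22 libraries the gap between the ranges enters the correlation. Odc1 there had r of 0.77 and rho of 0.81 (adjusted permutation p = 8.0e-05 and 0.00024). For the 7 other members the adjusted permutation p of Pearson's r was then 0.0925 to 0.632. In KD EE, the score was 3.87, 5.15, 5.58 and 6.34 in libraries 7, 8, 32A and 36A, which were low in Amd2, and 2.17 in library 9. WT EE libraries 16, 17 and 33A had scores of 6.16, 5.86 and 6.37 with Amd2 at 3.58, 3.54 and 5.47 CPM. WT SH library 13, with Amd2 at 0.222 CPM, had a score of 1.43. The relation of Amd2 to the score was not tested.

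The genes that regulate ornithine decarboxylase differed little between groups. Oaz1 was 152 ± 19.2 CPM in WT SH (SD, n = 6), 152 ± 18.2 in WT EE (SD, n = 5), 162 ± 18.0 in KD SH (SD, n = 6) and 152 ± 14.8 in KD EE (SD, n = 5). Its log2 fold change was -0.0043 in WT EE against WT SH (95% interval -0.19 to 0.19), and -0.08 in KD EE against KD SH (-0.27 to 0.11). Azin1 was 131 to 183 CPM over the 22 libraries, with a log2 fold change of 0.0099 in WT EE against WT SH and -0.11 in WT SH against KD SH (95% interval -0.25 to 0.03).

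Among the genes that act after putrescine, Sms had an unadjusted p under 0.05 in 1 comparison. Sms was 121 to 149 CPM in WT SH with a median of 137, and 126, 117, 128, 120 and 119 CPM in WT EE libraries 16, 17, 31B, 33A and 35A. Libraries 17, 33A and 35A were below every WT SH library, and 16 and 31B were within their range. The log2 fold change was -0.15 (SE 0.058, unadjusted p = 0.0162, adjusted p = 0.448 by edgeR), and -0.12 with the choroid plexus score as a covariate (adjusted p = 0.651). In KD EE against KD SH it was -0.09 (95% interval -0.21 to 0.03). Srm was 29.0 to 43.8 CPM over the 22 libraries, and its log2 fold change was 0.03 in WT EE against WT SH (95% interval -0.14 to 0.20) and 0.06 in KD EE against KD SH (-0.11 to 0.23).

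Amd1 was 88.3 ± 5.55 CPM in WT SH (SD, n = 6), 85.2 ± 5.96 in WT EE (SD, n = 5), 97.5 ± 9.58 in KD SH (SD, n = 6) and 92.4 ± 8.57 in KD EE (SD, n = 5). Its lowest p was in WT SH against KD SH, where the log2 fold change was -0.14 (95% interval -0.28 to 0.0020, adjusted p = 0.811). It was -0.05 in WT EE against WT SH and -0.07 in KD EE against KD SH, the comparison in which 4 of 5 enriched libraries were low in Amd2. The 95% interval of the latter was -0.21 to 0.08, with library 9 included. Amd2 gave 2.81% to 5.93% of the joint counts in KD SH, and whether Amd1 changed by so small a part was not tested.

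In KD SH, library 5 was at an end of the range of the catabolic genes Sat1 and Smox. Sat1 was 46.1 CPM in KD SH library 5 and 29.0 to 40.8 CPM in the other 5, and Smox was 28.7 CPM in library 5 and 34.6 to 41.5 CPM in the others. Library 5, with 18187696 counts on genes, was the highest or lowest of its group for 6 of the 8 members, including the highest Azin1 (183 CPM) and the lowest Srm (29.0 CPM) of the group. Library 6 of KD SH was so for 5 of the 8, as were libraries 12 and 14 in WT SH and 17 in WT EE. The log2 fold change of Smox in KD EE against KD SH was 0.18 (95% interval -0.01 to 0.37, adjusted p = 0.547) and that of Sat1 was -0.14 (-0.32 to 0.04, adjusted p = 0.616). In WT EE against WT SH these were 0.11 and -0.05.

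The wider pathway was taken as 30 other genes of antizymes, transporters, ornithine and arginine metabolism, eIF5A hypusination and methionine salvage, of which 25 were tested. The rest did not pass the filter on low counts. In each of the 5 comparisons 0 of the 25 were called, and 0% of all genes were. The number of the 25 with an unadjusted p under 0.05 was 1 in WT EE against WT SH (8.65% of all genes), 0 in KD EE against KD SH (9.63%), 3 in WT SH against KD SH (5.76%), 0 in WT EE against KD EE (2.61%) and 1 in the interaction (2.04%). Oaz3, an antizyme known from the testis, was 1.12 ± 0.219 CPM in WT SH (SD, n = 6), 1.62 ± 0.493 in WT EE (SD, n = 5), 1.46 ± 0.257 in KD SH (SD, n = 6) and 1.21 ± 0.417 in KD EE (SD, n = 5). Its interaction was 0.84 (SE 0.31, unadjusted p = 0.0131, adjusted p = 1.0) and its log2 fold change in WT EE against WT SH 0.53 (adjusted p = 0.474). In WT SH against KD SH, Mat2b, the regulatory subunit of methionine adenosyltransferase, had -0.16, the transporter gene Slc12a8 -0.43 and Apip, of methionine salvage, -0.19, each with an adjusted p of 0.811. In KD EE against KD SH the lowest unadjusted p was that of Adi1, of methionine salvage, with -0.14 (adjusted p = 0.578), followed by the polyamine exporter of lysosomes Atp13a2 with 0.14 and Oaz3 with -0.31. In WT EE against KD EE, Arg2 (arginase) had 0.36, Oaz3 0.47 and Mat2b -0.12, with adjusted p of 1.0.

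The libraries used held 8911999 to 56752074 counts on genes (median 30265878), in which 3 counts corresponded to 0.0529 to 0.337 CPM. Rps6ka5 was 19.3 to 29.0 CPM in the 22 libraries, and since the mutation is a coding change within the gene, its counts do not check the genotype. The study itself inspected aligned reads over this gene for the mutated base. Summed markers of hippocampal neurons were 5955 to 7802 CPM, of astrocytes 4265 to 5943, of oligodendrocytes 4525 to 6743, of microglia 300.1 to 366, of endothelium 191 to 236, of ependyma 19.1 to 47.5 and of meninges 90.4 to 380 CPM. Thalamus markers were 183 to 563 CPM and striatum markers 90.2 to 239 CPM. The mean log2 CPM of the thalamus markers was 5.66 in WT SH library 12 and 3.23 to 4.13 in the others. That of the striatum markers was 4.54 in WT SH library 14 and 2.90 to 3.56 in the others. The part of such tissue in the levels of the members was not tested. The strain markers Nnt and Wdfy1 were 19.4 to 38.3 and 14.7 to 18.6 CPM, and Entpd4 was at 0 in 21 of the 22 libraries.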

How the data were processed

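Poly-A RNA of whole hippocampus was sequenced as paired reads in 24 libraries. Per the labels and the study's methods, the authors trimmed reads, mapped them with STAR 2.5 (GRCm38), and HTSeq counted unique alignments per gene symbol without strand. The deposited counts per library are raw. Of the fragments in the 22 libraries, 10.0% to 14.2% fell in no gene and 3.77% to 4.41% were ambiguous, and these were left out of library sizes. The authors' table of counts divided by DESeq2 size factors was not used.

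The 22 libraries were fitted in edgeR 4.0.16 (R 4.3.3) with filterByExpr by group, TMM factors and a mean per group, by the quasi-likelihood test. CPM are scaled by TMM factors over all genes of the files. Replicates are libraries, and where the labels do not say that they are separate animals p-values measure only their spread. Within groups, 0 pairs of libraries held identical counts. The test was tried on simulated data. Positions and transcripts are from GENCODE M21 and promoter windows from RefSeq GRCm38.p6, in which Srm and Azin1 had no entry. Transcripts were aligned with Biopython 1.88, and correlations used 100000 permutations or, with 6 libraries, all orders. The Wilson intervals and the floors cover counting error only. The fold-change intervals come from the quasi-likelihood fit and also include the spread between libraries.

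The members and lists were chosen with earlier results of these data known. Genes named were every member, each Amd symbol, up to 3 other polyamine genes with the lowest p per comparison, the 5 highest and 5 lowest r with Amd2, the 3 nearest tested genes on each side of it, Rps6ka5 and the marker lists. Genes named for a call under another setting were chosen after their values were seen. Alternatives were the 17 libraries of the study, all 24, no lettered libraries, only the groups compared, DESeq2 1.42.0 or its size factors, other filters, the adjusted p alone, the choroid plexus score as a covariate, and each library left out. An item withheld for evaluation is not reported here.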

Additional observations from a re-analysis of the deposited data

Results flagged for a closer look

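The level of each of the 8 members other than Amd2 was checked in each of the 4 groups, for a library whose gap to the nearest other, divided by the range of its group, was above Dixon's 95% critical value (0.71 for 5 libraries, 0.625 for 6). Of 32 groups of values, 0 were past it, where chance gives about 5%. Amd2 was not checked in this way, since its level in the KD EE libraries chose the members.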

How the results depend on the processing

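Of the 40 fold changes of the 8 members, a direction was read only for the 2 whose 95% interval excluded 0 (Odc1 and Sms in WT EE against WT SH), and 0 of these changed sign under any alternative, while 19 of the other 38 did under at least 1. The number of members called was 0 in every comparison and alternative except WT EE against WT SH, where it was 1 (Odc1) in the 17 libraries of the study, 1 with no lettered libraries and 1 in the 17 with KD EE library 9 put back, an alternative added after the data were seen (log2 fold change 0.42, adjusted p = 0.00139). Leaving out 1 library at a time gave Odc1 log2 fold changes from 0.18 (without WT EE library 17) to 0.32 (without 31B) in that comparison. Over the other alternatives, its adjusted p ran from 0.000458 to 1.0.

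Among all genes, the number called in WT EE against WT SH was 664 in the 17 libraries, 577 in the 17 with library 9, 314 with no lettered libraries, 20 with DESeq2, 7 with no filter on low counts and 1 (Lpin3) in all 24. In KD EE against KD SH it was 325 in the 17 libraries, 197 in the 17 with library 9 and 3 with DESeq2 (Nedd9, Serinc2 and Serpinb1a). In WT SH against KD SH it was 2 with DESeq2 (Cstb and Rpl22l1), and in WT EE against KD EE it was 1 (Amd2) in the 17 libraries. With each library left out in turn, it was 0 to 1 in KD EE against KD SH and 0 to 1 in WT EE against KD EE, the 1 being Amd2 without KD EE library 9, and 0 in the others. The cause of these shifts was not tested, and the calls of Amd2 are no support for the pattern by which it was chosen. Amd2 did not pass the filter of 10 counts in every library, so that setting gave no value for it. No paired analysis was possible because the library codes are not shared between groups.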
